A study of Homo sapiens with 12 samples.

Results

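The genes described here write, oxidise or read DNA methylation: the de novo methyltransferases DNMT3A and DNMT3B, the dioxygenases TET1, TET2 and TET3, and the methyl-CpG binding proteins MBD1, MBD2 and MBD4. They were listed by gene name, with earlier results of these data known, and all 8 were found once each among the 60609 genes of the count files. K562 is an established human line of chronic myeloid leukemia cells with erythroid features. FT671 blocks the catalytic activity of USP7, an enzyme that removes ubiquitin from proteins. Total RNA of K562 cells exposed to vehicle (DMSO, 3 libraries) or to 10 μM FT671 (3 libraries) for 48 h was sequenced after removal of ribosomal RNA, in experiments that the study describes as independent. The labels give no genetic alteration for either group, and all libraries came from this 1 line. ChIP samples for 3 histone marks at 24 h were not analysed here.

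Methylation of cytosine in CpG dinucleotides is set on unmodified DNA by the DNMT3 enzymes and copied onto the new strand after replication by DNMT1, which UHRF1 brings to hemimethylated sites. TET enzymes need iron and alpha-ketoglutarate to oxidise the methyl group, after which the base is lost by dilution or cut out by base excision repair. MBD proteins bind methylated CpGs and bring repressor complexes such as NuRD to them, whereas MBD4 is also a glycosylase that removes the thymine left when methylated cytosine deaminates. In blood cells DNMT3A and TET2 are known as genes that are frequently mutated in clonal hematopoiesis and leukemia. These data hold transcript counts and no measurement of methylation, protein or enzyme activity.

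The libraries held between 4555220 and 14250500 counts, and a detection floor of 3 counts lay at 0.211 to 0.659 CPM, the count scaled to a common library size. This floor covers counting error only. Among 12 erythroid and leukemia markers of K562, 11 passed the filter on low counts, of which 7 fell and 4 rose, and the summed expression of the list was 1469 to 1487 CPM in DMSO and 1277 to 1321 CPM after FT671. The part of this difference in the results on the 8 genes was not tested. The lymphocyte markers CD8A and MS4A1 and the granulocyte markers ELANE and S100A8 had 0 counts in every library, although SPI1 and LYZ of the myeloid list were present. The summed expression was 18.9 to 23.6 CPM in DMSO and 26.99 to 33.3 CPM after FT671 for 7 lymphocyte markers, 185 to 203 and 162 to 169 CPM for 7 myeloid markers, and 21.7 to 22.4 and 21.5 to 22.5 CPM for 5 fibroblast and endothelial markers. USP7 itself, whose protein is the target of FT671, fell from 119 ± 12.3 to 33.1 ± 3.38 CPM (SD, n = 3 each), or in log2 fold change −1.82 (adjusted p = 2.66e-08 from edgeR). All of these are bulk measurements, in which fewer cells of a kind and less RNA per cell cannot be told apart.

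Of the 8 genes, TET3 and MBD1 fell after FT671, DNMT3A and TET1 rose, and DNMT3B, TET2, MBD2 and MBD4 did not pass an adjusted p of 0.05. The largest difference was that of TET3, whose expression after FT671 was 53.5% of that in DMSO. All 8 genes passed the filter on low counts, with between 117 and 2926 counts per gene and library. At an adjusted p of 0.05 from edgeR's quasi-likelihood test, 25% of the 8 genes were lower, against 26.5% of the 13895 genes tested, and 25% were higher, against 23.6%. The share of these genes that was called was thus near that of all genes in either direction. Their median log2 fold change was 0.14, beside −0.01 over all genes tested. In TET3 and MBD1 every FT671 library lay below every DMSO library, as in 30.3% of all genes tested, and in DNMT3A every FT671 library lay above, as in 26.8%. In the other 5 genes the groups overlapped.

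**Figure D1:**
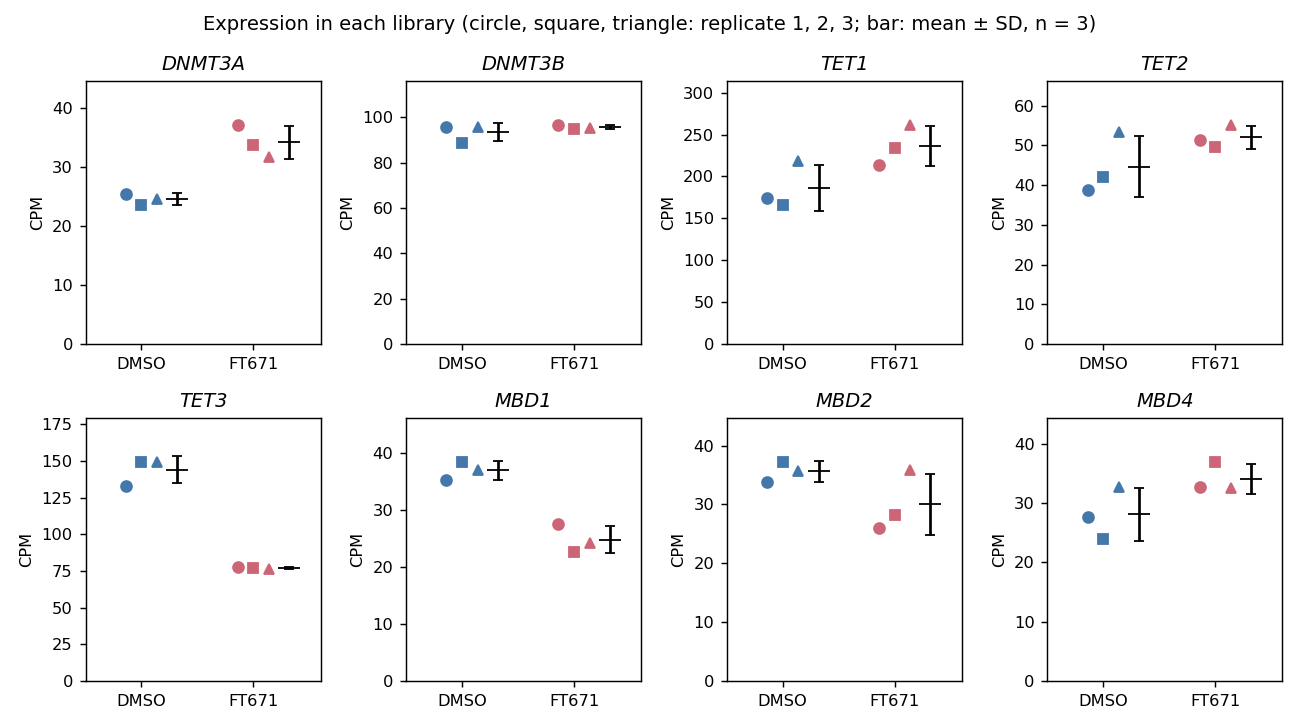
Expression of the 8 genes in CPM (linear axes from 0) in each DMSO library (blue) and FT671 library (red), with the mean and SD of 3 libraries beside them. TET3 lay between 133 and 149 CPM in DMSO and between 76.1 and 77.5 CPM after FT671, whereas the DNMT3B libraries of both groups lay between 88.8 and 96.6 CPM.

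Levels of different genes were compared per kilobase of annotated exon. In DMSO the order from high to low was TET1 (19.4 ± 2.91 CPM per kb), DNMT3B (13.6 ± 0.576), TET3 (11.1 ± 0.717), MBD4 (8.38 ± 1.32), MBD2 (6.26 ± 0.301), MBD1 (5.50 ± 0.242), TET2 (2.71 ± 0.463) and DNMT3A (1.78 ± 0.0705; SD, n = 3 each). No neighbours in this order overlapped between libraries in DMSO. After FT671 the order was the same except that MBD4 (10.2 ± 0.757 CPM per kb) stood above TET3 (5.94 ± 0.0573; SD, n = 3 each). TET3 and its next neighbour MBD2 (5.27 ± 0.911 CPM per kb; SD, n = 3) then overlapped. The exon length is that of all annotated transcripts merged, and the transcripts used in K562 may be shorter, so that the order is approximate.

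TET3 (ENSG00000187605, chromosome 2 from 73984910 to 74108176 in hg38, plus strand) encodes the TET enzyme known for its role in the zygote, where it oxidises the paternal genome. Its expression was 133, 149 and 149 CPM in DMSO replicates 1 to 3, against 77.5, 77.0 and 76.1 CPM in FT671 replicates 1, 2 and 3. The 3 FT671 libraries differed from each other by far less than from any DMSO library. The mean fell from 144 ± 9.28 to 76.9 ± 0.741 CPM (SD, n = 3 each), or −0.90 ± 0.0780 (SE) in log2 units (edgeR, adjusted p = 7.01e-07). Of all genes tested, 8.40% had a lower log2 fold change than TET3. At an adjusted p of 1e-05 TET3 alone among the 8 genes passed, as a lower gene. All genes tested passed this stricter limit as lower in 4.13% and as higher in 1.79%. An unnamed lncRNA gene, ENSG00000235499, lies in the first part of TET3 on the same strand and shares 390 bases with its exons, 3.01% of their length. This lncRNA changed from 4.36 ± 0.761 to 3.03 ± 0.771 CPM (SD, n = 3 each), so that its whole level was below the difference in TET3.

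TET1 (ENSG00000138336, chromosome 10 from 68560337 to 68694487, plus strand) encodes a TET enzyme with a CXXC domain that binds unmethylated CpGs. It had 175, 166 and 218 CPM in DMSO replicates 1 to 3, against 214, 234 and 262 CPM in FT671 replicates 1, 2 and 3. DMSO replicate 3 lay above FT671 replicate 1, so that the groups overlapped through 1 library. The mean rose from 186 ± 27.9 to 237 ± 23.8 CPM (SD, n = 3 each), or 0.36 ± 0.102 (SE) in log2 units (edgeR, adjusted p = 0.0101). This call was lost without DMSO replicate 1 (log2 fold change 0.31, adjusted p = 0.0501 from edgeR) and without FT671 replicate 3 (0.28, adjusted p = 0.0761).

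TET2 (ENSG00000168769, chromosome 4 from 105145875 to 105279816, plus strand), the TET gene most often mutated in myeloid disease, was the lowest of the 3 TET genes per kilobase. Its expression was 38.7, 42.0 and 53.2 CPM in DMSO and 51.3, 49.6 and 55.1 CPM after FT671, in order of replicate. As for TET1, DMSO replicate 3 was the library of that group nearest to the FT671 libraries. The log2 fold change was 0.25 (95% interval −0.0031 to 0.50, adjusted p = 0.0928 from edgeR). TET2 passed 0.05 as higher where libraries were corrected for exon length (0.38, adjusted p = 0.00489 from edgeR) or GC content (0.27, adjusted p = 0.0171), and without DMSO replicate 3 (0.37, adjusted p = 8.55e-04). The antisense gene TET2-AS1 had 2 counts in all 6 libraries together.

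Since the ratio of 2 genes inside a library does not depend on how libraries are scaled, the TET genes were also compared as ratios of counts. The log2 ratio of TET3 to TET1 was −0.39, −0.15 and −0.55 in DMSO replicates 1 to 3, against −1.47, −1.60 and −1.78 in FT671 replicates 1, 2 and 3. It was lower after FT671 by 1.25, without overlap of the groups. The log2 ratio of TET3 to TET2 was 1.70 ± 0.188 in DMSO and 0.56 ± 0.0895 after FT671 (SD, n = 3 each), a change of −1.14, again without overlap. For both ratios the two-sided exact permutation test gave p = 0.1, the smallest that 3 libraries against 3 allow, and 0.15 after Benjamini-Hochberg adjustment over 6 ratios. The log2 ratio of TET1 to TET2 changed by 0.12 with overlapping groups (exact permutation p = 0.2, adjusted 0.24).

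**Figure D2:**
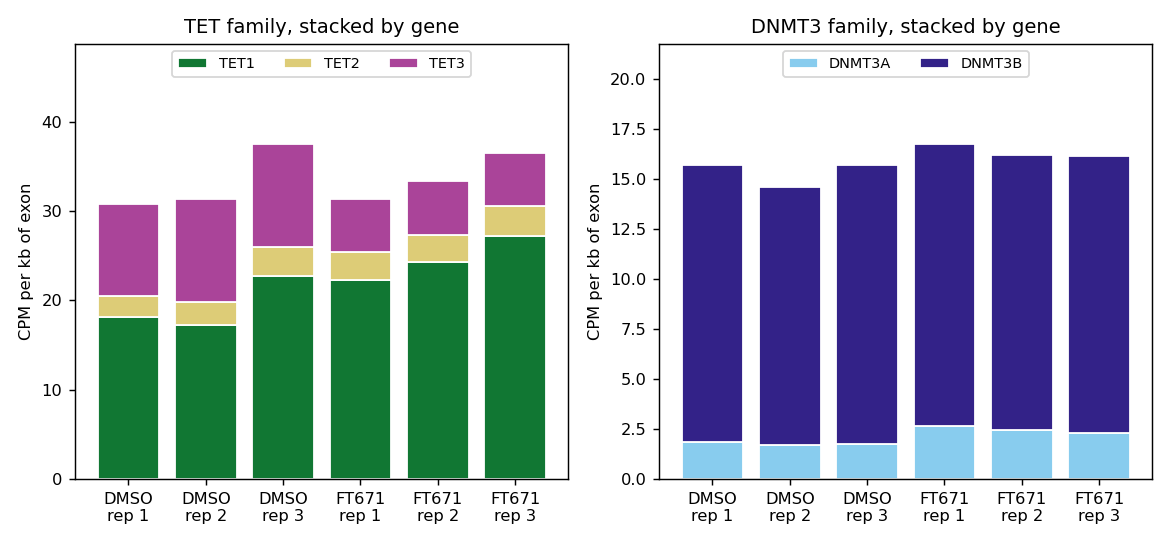
Expression per kilobase of exon (CPM per kb, bars from 0), stacked by gene, of the TET genes (left) and the DNMT3 genes (right) in each of the 6 libraries. The part of TET3 shrinks from 33.7% of the TET sum in DMSO to 17.7% after FT671, while the height of the TET bars spans 30.8 to 37.4 in DMSO and 31.4 to 36.4 after FT671.

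Per kilobase, TET3 made up 33.4%, 36.8% and 30.7% of the summed expression of the TET genes in DMSO replicates 1 to 3, against 19.1%, 17.9% and 16.1% in FT671 replicates 1, 2 and 3. The share of TET1 was 58.2% ± 2.85 in DMSO and 72.9% ± 1.85 after FT671 (SD, n = 3 each). TET2 held 8.13% ± 0.501 and 9.39% ± 0.473 (SD, n = 3 each). The sum of the 3 genes was 33.2 ± 3.68 CPM per kb in DMSO and 33.7 ± 2.55 after FT671 (SD, n = 3 each), with overlapping libraries. The share of TET3 was lower, and that of TET1 higher, in every FT671 library than in every DMSO library, while the sums differed by less than their SD.

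The 250 bases before the start sites of TET3 and TET1 are shown because these genes changed in opposite directions. The sequences are from RefSeq (GRCh38.p14), with each CpG in capitals. They lie at chr2:73984660-73984909 and chr10:68560087-68560336, both on the plus strand.
TET3: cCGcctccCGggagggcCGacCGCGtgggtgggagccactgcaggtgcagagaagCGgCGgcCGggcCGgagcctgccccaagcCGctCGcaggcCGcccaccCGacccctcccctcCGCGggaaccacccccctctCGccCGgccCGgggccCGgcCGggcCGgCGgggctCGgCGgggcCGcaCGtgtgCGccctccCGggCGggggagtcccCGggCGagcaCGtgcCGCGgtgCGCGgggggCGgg
TET1: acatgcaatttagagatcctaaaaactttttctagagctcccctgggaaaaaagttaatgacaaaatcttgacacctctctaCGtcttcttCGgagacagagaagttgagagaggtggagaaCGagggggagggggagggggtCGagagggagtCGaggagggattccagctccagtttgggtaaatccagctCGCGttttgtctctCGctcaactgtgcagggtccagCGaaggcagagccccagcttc

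The window of TET3 holds 37 CpGs, which is at percentile 96.5 of 27305 promoters of the same length, and 84% of its bases are G or C. That of TET1 holds 9 CpGs (percentile 47.2) with 51.6% G or C, beside a median of 11 CpGs over all promoters. The TET2 window holds 10 CpGs (percentile 49.0). Outside the TET genes, the window of DNMT3A, which rose, holds 21 CpGs (percentile 71.3). Those of MBD2 and MBD4, which were not called, hold 21 (percentile 71.3) and 26 (percentile 81.8). A relation between the number of CpGs and the direction of change was not tested. Letters matching the GC box GGGCGG on either strand were in the windows of TET3, MBD2 and MBD4, and in 42.3% of all promoters. They were in neither the window of TET1 nor that of TET2. The E-box CACGTG, which reads the same on both strands, was in those of TET2 and TET3 and in 6.49% of all promoters.

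DNMT3B (ENSG00000088305, chromosome 20 from 32762385 to 32809359, plus strand), the de novo methyltransferase of the early embryo and of many cell lines, was the more abundant of the DNMT3 genes. Its expression was 95.5, 88.8 and 95.8 CPM in DMSO and 96.6, 94.7 and 95.4 CPM in FT671, in order of replicate. The FT671 libraries lay within 2 CPM of each other, with 2 of them inside the DMSO range and replicate 1 just above it. The log2 fold change was 0.04 (95% interval −0.13 to 0.20, adjusted p = 0.719 from edgeR), so that a fall to the level seen for TET3 lies outside the interval. DNMT3B has more than 1 annotated start, which counts per gene cannot tell apart, and its promoters are not described here.

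DNMT3A (ENSG00000119772, chromosome 2 from 25227855 to 25342590, minus strand), the de novo methyltransferase of adult blood stem cells, had the lowest level per kilobase of the 8 genes. Its expression was 25.5, 23.5 and 24.6 CPM in DMSO replicates 1 to 3, against 37.1, 33.7 and 31.6 CPM in FT671 replicates 1, 2 and 3. All FT671 libraries lay above all DMSO libraries. The mean rose from 24.5 ± 0.972 to 34.2 ± 2.75 CPM (SD, n = 3 each), or 0.46 ± 0.106 (SE) in log2 units (edgeR, adjusted p = 0.00241), the largest rise among the 8 genes. No annotated gene shares exons with DNMT3A. Its long and short protein isoforms cannot be told apart in counts per gene.

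The counts of DNMT3A were 0.267, 0.265 and 0.257 times those of DNMT3B in DMSO replicates 1 to 3, against 0.384, 0.356 and 0.331 times in FT671 replicates 1, 2 and 3. On the log2 scale the ratio rose by 0.44 without overlap of the groups (two-sided exact permutation test, p = 0.1, the smallest possible, adjusted 0.15). Per kilobase, DNMT3A held 11.6% ± 0.212 of the sum of both genes in DMSO and 15.1% ± 0.943 after FT671 (SD, n = 3 each), so that DNMT3B remained the main DNMT3 transcript in every library.

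**Figure D3:**
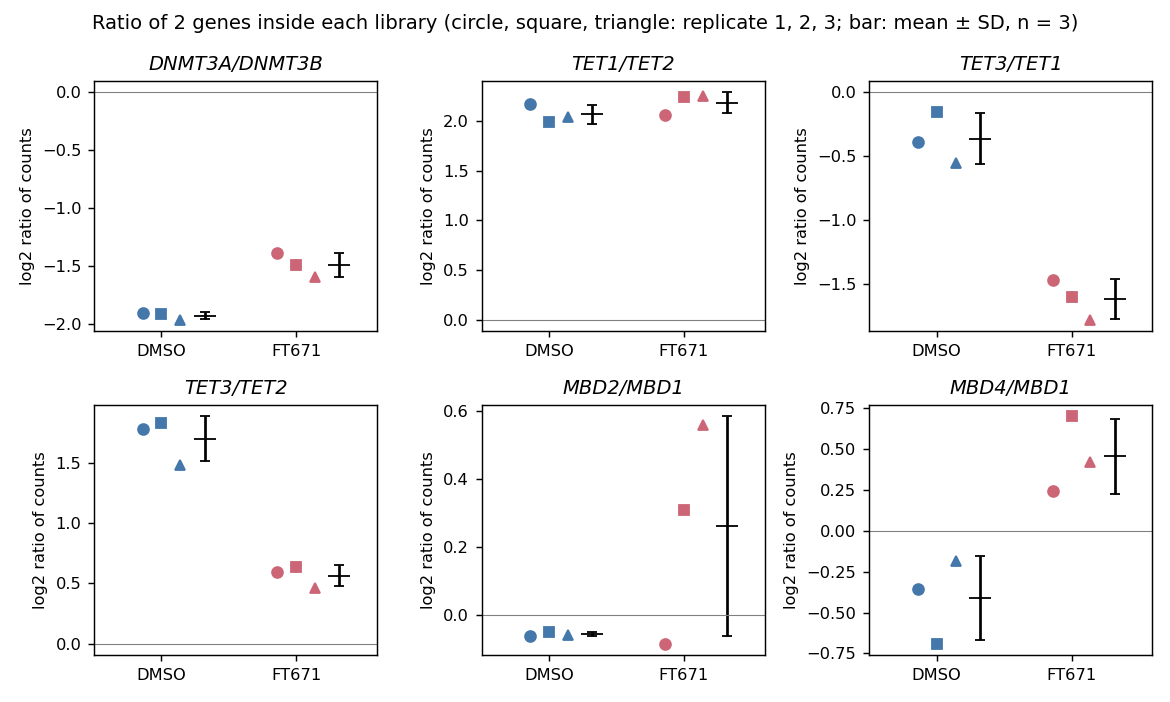
The log2 ratio of the counts of 2 genes inside each library, in DMSO (blue) and FT671 (red), with the mean and SD of 3 libraries. The groups do not overlap for DNMT3A/DNMT3B, TET3/TET1, TET3/TET2 and MBD4/MBD1, and they overlap for TET1/TET2 and MBD2/MBD1.

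MBD1 (ENSG00000141644, chromosome 18 from 50266882 to 50281774, minus strand) encodes a repressor with a methyl-CpG binding domain and CXXC zinc fingers. It had 35.3, 38.6 and 37.2 CPM in DMSO and 27.5, 22.7 and 24.3 CPM after FT671, in order of replicate. Every FT671 library was below every DMSO library. The mean fell from 37.0 ± 1.63 to 24.9 ± 2.45 CPM (SD, n = 3 each), or −0.58 ± 0.108 (SE) in log2 units (edgeR, adjusted p = 5.15e-04). Its start lies in a CpG-rich window with 23 CpGs in 250 bases (percentile 75.7).

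MBD2 (ENSG00000134046, chromosome 18 from 54151606 to 54224669, minus strand) binds methylated CpGs as a part of NuRD. Its expression was 33.9, 37.3 and 35.7 CPM in DMSO and 26.0, 28.1 and 35.8 CPM in FT671 replicates 1, 2 and 3. FT671 replicates 1 and 2 lay below all DMSO libraries, and FT671 replicate 3 lay among them. The log2 fold change was −0.22 (95% interval −0.48 to 0.05, adjusted p = 0.159 from edgeR). Without FT671 replicate 3 it was −0.39 and passed 0.05 (adjusted p = 0.0283 from edgeR), so that this 1 library decided the call.

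MBD4 (ENSG00000129071, chromosome 3 from 129430947 to 129440179, minus strand), the thymine glycosylase, had 27.6, 23.9 and 32.7 CPM in DMSO replicates 1 to 3, against 32.6, 37.0 and 32.5 CPM in FT671 replicates 1, 2 and 3. DMSO replicate 3 lay just above FT671 replicates 1 and 3, so that the groups overlapped through this library. The log2 fold change was 0.29 (95% interval 0.03 to 0.56). Its unadjusted p was 0.0317 from edgeR, and the adjusted p of 0.0606 did not pass 0.05. It passed with DESeq2's size factors (0.31, adjusted p = 0.0424 from edgeR), after the GC correction (0.33, adjusted p = 0.0108) and without DMSO replicate 3 (0.38, adjusted p = 0.00332). MBD4 shares 279 exon bases (8.32%) with IFT122, which is transcribed the other way. IFT122 differed by 0.25 in log2 units (edgeR, adjusted p = 0.105). Since the strand setting of the counting is not known, reads in the shared bases cannot be assigned.

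Inside libraries the log2 ratio of MBD4 to MBD1 moved from −0.41 ± 0.258 in DMSO to 0.46 ± 0.230 after FT671 (SD, n = 3 each). MBD4 had fewer counts than MBD1 in every DMSO library and more in every FT671 library (two-sided exact permutation test, p = 0.1, adjusted 0.15). The log2 ratio of MBD2 to MBD1 was −0.06, −0.05 and −0.06 in DMSO and −0.08, 0.31 and 0.56 after FT671, in order of replicate (exact permutation p = 0.4, adjusted 0.4).

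**Figure D4:**
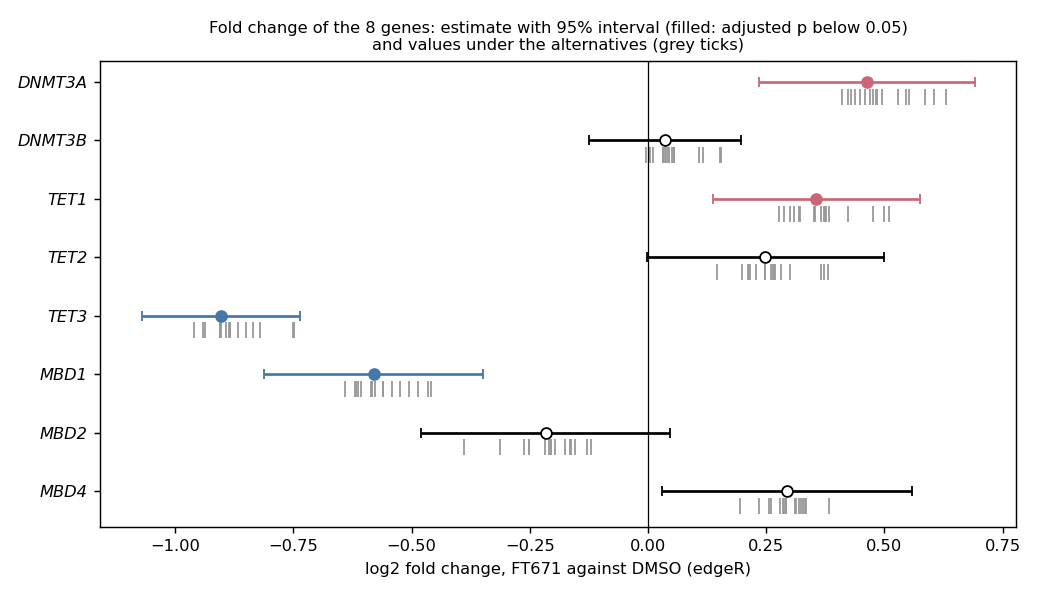
Log2 fold change of each gene, FT671 against DMSO, with its 95% interval (filled points passed an adjusted p of 0.05 in edgeR, blue lower and red higher) and, as grey ticks, the values under each alternative processing. The ticks of TET3 lie between −0.96 and −0.75 and those of DNMT3A between 0.41 and 0.63, whereas those of DNMT3B lie between −0.0032 and 0.16.

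Among the genes whose log2 CPM followed TET3 most closely over the 6 libraries were LMTK2, a kinase, and ZNF609, a zinc finger gene (Pearson's r = 0.9993 and 0.9992). Their log2 fold changes were −1.49 and −0.54. With DNMT3A the closest were DNAAF2 (r = 0.998), SOCS6 (0.997) and LRP4 (0.995). At a looser limit, 1493 of 13894 genes had an r above 0.95 with TET3 and 432 with DNMT3A. These values rest on 6 libraries in 2 groups, and all genes of a library share its depth and scaling.

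Other genes of DNA methylation were taken from lists written with earlier results of these data known. The counts of each list stand beside the 26.5% of all genes tested that were lower and the 23.6% that were higher, and the lists are too short for such shares to be precise. In the maintenance group, DNMT1 itself had 438 ± 10.3 CPM with vehicle against 481 ± 7.01 CPM with FT671 (SD, n = 3 each), with a log2 fold change of 0.13 (adjusted p = 0.0982 from edgeR). Of the same group, UHRF1, UHRF2 and CDCA7 rose, with log2 fold changes of 0.33, 0.47 and 0.38. PCNA, the replication clamp, fell by 1.44 on the log2 scale (adjusted p = 5.15e-08 from edgeR), the 1 of 7 genes of this list that was lower. DNMT3L, the cofactor of the DNMT3 enzymes, did not pass the filter on low counts, and TRDMT1, an RNA methyltransferase of the DNMT family, had a log2 fold change of −0.35 without passing the test.

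Among 11 other methyl-CpG readers 6 fell (54.5%, against 26.5% of all genes tested) and 1 rose. Under the alternative processing the number that fell was between 4 and 7. The gene that rose, SETDB2, a histone methyltransferase with a methyl-CpG binding domain, had a log2 fold change of 0.49 (adjusted p = 0.0224 from edgeR). Its call was lost without DMSO replicate 1 (0.48, adjusted p = 0.0676 from edgeR), DMSO replicate 2 (0.37, 0.101), FT671 replicate 2 (0.43, 0.0850) or FT671 replicate 3 (0.41, 0.127). MBD3, the NuRD subunit that takes the place of MBD2 in an alternative form of the complex, fell from 33.4 ± 3.08 to 10.5 ± 0.451 CPM (SD, n = 3 each), or in log2 fold change −1.69 (adjusted p = 1.63e-07 from edgeR), which is a larger fall than that of any of the 8 genes. ZBTB4, ZBTB38 and MBD6 had log2 fold changes of −1.33, −0.73 and −0.56, the exons of MBD6 overlapping those of DCTN2 on the other strand by 10.3%. Of the 12 NuRD subunits listed, 5 fell, GATAD2B and HDAC1 among them (−0.77 and −0.53), and 3 rose, including RBBP7 and CHD3 (0.51 and 0.50). These are 41.7% lower and 25% higher, the latter near the 23.6% of all genes.

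Of 13 genes for the removal of oxidised bases and for TET partners, 11 were tested, of which 5 rose (45.5%, against 23.6% of all genes) and 1 fell. GADD45B and GADD45A, stress genes that have also been linked to demethylation, rose from 1.37 ± 0.571 to 5.71 ± 0.953 CPM and from 69.4 ± 7.64 to 198 ± 0.618 CPM (SD, n = 3 each), and the glycosylase NEIL2 rose by 0.65 on the log2 scale. CXXC5, a CXXC protein that binds TET2, fell by 0.76. Among 8 enzymes that make or use alpha-ketoglutarate, succinate or fumarate, 2 fell and 2 rose, which is 25% each and near the shares of all genes. IDH1, which makes alpha-ketoglutarate in the cytosol, fell from 106 ± 14.3 to 45.9 ± 1.81 CPM (SD, n = 3 each), or in log2 fold change −1.20, and OGDH had −0.58, whereas SDHB and FH had 0.46 and 0.21. Of 9 genes listed around the cycle of the methyl donor S-adenosylmethionine, 3 fell and 3 rose (33.3% each, against 26.5% and 23.6% of all genes). MTR and AHCY rose by 0.99 and 0.43 on the log2 scale, whereas AHCYL1 and AMD1 had log2 fold changes of −0.71 and −0.49.

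A list of CXXC proteins, which bind unmethylated CpGs, and of PRC1.1 subunits without this domain (BCOR, BCORL1 and PCGF1) was lower in 6 of 9 genes (66.7%, against 26.5% of all genes). Lower were 5 of its 6 CXXC genes, FBXL19 (−1.09), KDM2B (−0.75), KDM2A (−0.62) and KMT2B (−0.59) among them, and BCOR (−0.39). The list does not hold every CXXC gene. Of those left out, TET1 rose (0.36), whereas MBD1 (−0.58) and CXXC5 (−0.76) fell, for example. Among 12 writers, erasers and readers of H3K36 and H3K4 methylation, counted together whatever their action, 8 were lower (66.7%). They include NSD2 (−0.44) and KDM5B (−0.46) beside KDM2A and KDM2B, which both lists hold. The median log2 fold change was −0.39 in the first list and −0.32 in the second, beside −0.01 over all genes tested. Of 15 germline genes that are known to be kept silent by promoter methylation in somatic cells, 6 had 0 counts in every library and 3 were tested. TEX11 rose from 0.814 ± 0.377 to 2.73 ± 1.05 CPM (SD, n = 3 each; adjusted p = 0.00204 from edgeR), and SYCP3 and RHOXF2 had log2 fold changes of 0.28 and −0.07 without passing. TEX11 had between 3 and 40 counts per library, and it no longer passed the filter on low counts without FT671 replicate 3, after thinning or with 10 counts asked in every library.

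**Figure D5:**
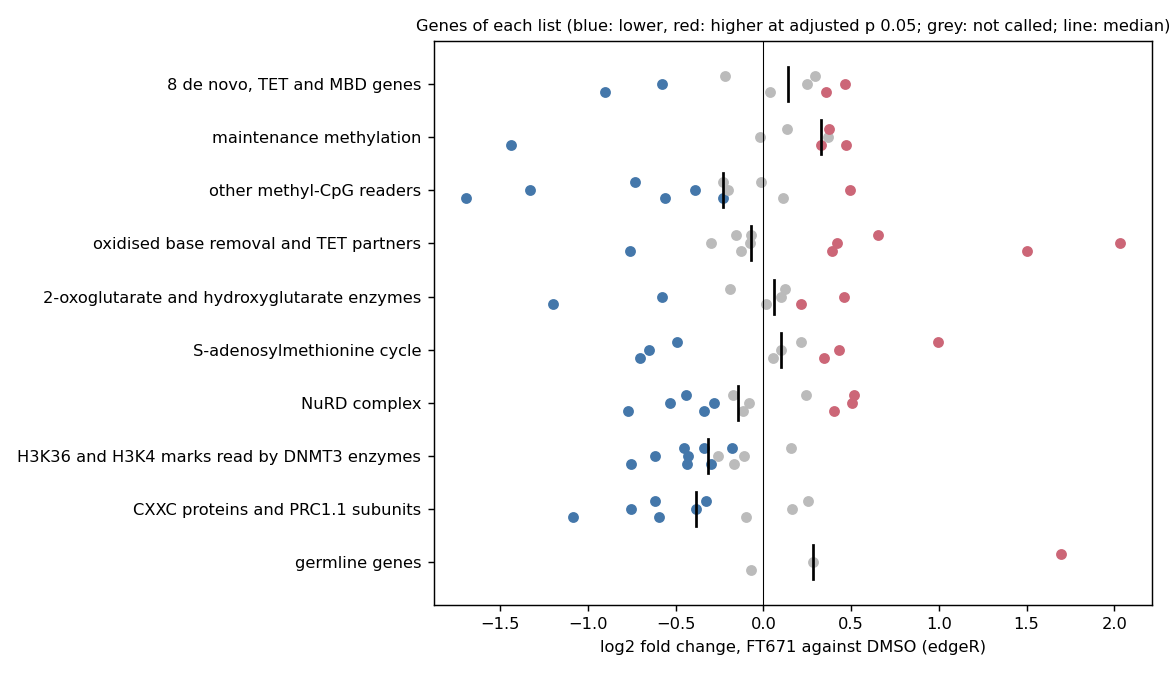
Log2 fold change, FT671 against DMSO, of every tested gene of each list (1 point per gene; vertical position within a row has no meaning), with the median of the list as a black line. Medians lie between −0.39 for CXXC proteins and PRC1.1 subunits and 0.33 for maintenance methylation, and the 8 genes described here have a median of 0.14.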

How the data were processed

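For 6 RNA-seq libraries the authors deposited read counts per gene, without normalization. Per the labels and the study's methods, paired-end reads of total RNA depleted of ribosomal RNA were mapped to hg38 by STAR's two-pass procedure, which also counted them. The versions, annotation release and strand setting are not given in the sources used here. Gene identifiers were matched, version dropped, to GENCODE release 44 (60295 of 60609 genes), which gave symbols, positions and exon lengths. The members and lists were chosen with earlier results of these data known. Genes were filtered with filterByExpr (13895 kept), scaled by TMM and tested by the quasi-likelihood test of edgeR 4.0.16 (R 4.3.3) without covariates, with Benjamini-Hochberg adjustment over all genes tested. CPM use TMM-scaled library sizes. The 95% intervals use the t quantile of the fit. Ratios of counts were tested by exact permutation over the 20 assignments of 6 libraries. The text names the 8 members, DNMT1, UHRF1, USP7, at most the 4 most changed called genes of each list with a mean of at least 1 CPM, overlapping genes, and 3 genes most correlated with the member that rose and the member that fell most. DNMT3L is named as a list gene below the filter. CD8A, MS4A1, ELANE, S100A8, SPI1, LYZ, SYCP3, RHOXF2, SETDB2, BCOR, BCORL1, PCGF1, TRDMT1 and AHCY were named after their values were seen. ChIP samples were not analysed here. Some items that this rule selects are not reported here. Alternatives were DESeq2 1.42.0 (size factors, Wald test), library totals, 2 other filters (none, or 10 counts in every library), a replicate block, loess corrections (span 0.3) for exon length and GC content, thinning to 4555220 counts and leaving out each library. The scripts were tested on simulated data.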

Additional observations from a re-analysis of the deposited data

How the results depend on the processing

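TET3 and MBD1 stayed lower and DNMT3A higher, each past 0.05, in all 17 alternatives run. At the study's threshold of 1e-05, 1 member (TET3) was lower and 0 were higher (edgeR's quasi-likelihood test; 3 were higher at an unadjusted p of 0.05, and DESeq2 also gave 0 at 1e-05). Members called higher numbered 4 with the GC correction, with and without the block, and between 1 and 4 without 1 library. Those called lower then numbered between 2 and 3. TET2 passed as higher with the gene length correction (0.38, or 0.37 with the block) and the GC correction (0.27, or 0.25 with the block), and MBD4 with DESeq2's size factors (0.31) and the GC correction (0.33 with and without the block). DNMT3B was −0.0032 without a filter on low counts, and the TET1/TET2 ratio changed by −0.0097 after thinning, both around 0. The cause of these differences was not tested.

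Without 1 library each, log2 fold changes ranged from 0.41 to 0.53 for DNMT3A, 0.0047 to 0.052 for DNMT3B, 0.28 to 0.48 for TET1, 0.15 to 0.37 for TET2, −0.96 to −0.87 for TET3, −0.64 to −0.53 for MBD1, −0.39 to −0.13 for MBD2 and 0.20 to 0.38 for MBD4. The ratio changes ranged from 0.39 to 0.49 for DNMT3A/DNMT3B, 0.078 to 0.18 for TET1/TET2, −1.35 to −1.15 for TET3/TET1, −1.24 to −1.07 for TET3/TET2, 0.17 to 0.49 for MBD2/MBD1 and 0.72 to 0.98 for MBD4/MBD1.

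The replicate numbers were not taken as pairs: deviations of same-numbered libraries correlated at 0.115, −0.0605 and 0.140 over all genes tested. In the fit with a block for replicate number, log2 fold changes were −0.90 for TET3, −0.58 for MBD1, 0.48 for DNMT3A and 0.35 for TET1, and the block alone changed no call among the 8 genes. Counts of genes called at 0.05 were 3761 lower and 3374 higher with the block, against 3687 and 3276 without it, and 3325 and 3848 after the gene length correction. Calls in the lists moved as well. Genes called lower ranged from 3 to 7 in the NuRD list and from 4 to 7 among methyl-CpG readers. In the list of H3K36 and H3K4 marks they ranged from 6 to 9. Genes called higher ranged from 2 to 5 in the maintenance list, 0 to 2 among methyl-CpG readers and 0 to 1 among germline genes. The smallest library holds 4555220 counts, so that genes not called may still differ.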
